A study of Mus musculus with 4 samples.

Results

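The set examined here holds 10 mouse genes whose products carry fatty acids through the cytosol, activate them or coat lipid droplets: Fabp1, Fabp2, Fabp5, Fabp6, Cd36, Acsl1, Acsl5, Dbi, Plin2 and Plin3. Of the 18194 genes that the platform annotation names by a single symbol, 9 are members. Their probe sets were picked by gene symbol, and the genes themselves were chosen from lipid genes whose differences between these knockout and control arrays were already known. The values of that contrast are therefore given for them as a description, with standard errors but without p-values. The annotation named 16 probe sets for these 9 genes. Acsl1 had none there, and 3 probe sets were named for it through the gene symbols of the authors' deposited table. That table lists only probe sets that changed at least 2-fold. Acsl1 could thus enter only by such a change, and any unchanged Acsl1 probe set would be missed.

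Each of 4 Affymetrix Mouse430_2 arrays was hybridised with RNA of Epcam-selected epithelium from the embryonic gut, taken between the stomach and the caecum at E15.5. The 2 controls (WT in the titles, genotype YY1f/f) carried floxed Yy1 alleles and no Cre. The 2 knockouts (Yy1_KO, genotype Yy1f/f; Shh-Cre) carried the same alleles and a Cre made under Shh, which is active in gut endoderm, so that an effect of the Cre allele cannot be told apart from that of Yy1 loss. Every sample was a pool of at most 2 embryos, described as littermates across genotypes and as biological replicates. YY1 is a zinc finger transcription factor, and the title of the study puts its question in terms of aerobic metabolism during intestinal development.

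Absorptive cells of the gut take up long-chain fatty acids, hold them in the cytosol on small fatty acid binding proteins, and join them to coenzyme A before they are esterified, oxidised or stored. Droplets of the resulting triacylglycerol are wrapped by perilipins on their way to chylomicrons or to breakdown. Genes of this route are known targets of nuclear receptors of the PPAR and HNF4 families, and several mark the mature enterocyte of the villus.

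Yy1 itself had control values of 8.79 and 8.82 and knockout values of 7.27 and 6.81 (log2) on its brightest probe set. Whether it lies in the deleted stretch is not known here, so it checks the labels only in part. Shh, whose locus drives the Cre, had control values of 7.42 and 7.38 and knockout values of 5.55 and 5.36. Pearson's r over the tested probe sets was 0.990 between controls, 0.989 between knockouts and 0.905 to 0.925 across genotypes. Epcam, the surface protein used for the selection, read 11.50 and 11.54 in the control pools against 11.01 and 11.15 in the knockout pools and was lower by a change of -0.44 (limma adjusted p = 0.0287). All 18 listed epithelium markers were tested, with a median log2 change of -0.16, and their summed linear signal was 11880 and 12464 for the control pools, against 10535 and 11168 for the knockout pools. Of the 18, 5 were lower, 4 higher and 9 did not pass. Markers of several other cell types were higher in the knockouts. All 11 tested mesenchyme genes of 16 listed rose, with summed signals of 855 and 693 against 3038 and 2763. All 8 tested smooth muscle genes of 10 rose, with sums of 390 and 243 against 2939 and 2958. So did 7 tested leukocyte genes of 13, with sums of 187 and 180 against 612 and 737. Testing needed a log2 value of 4 on at least 2 arrays. Both controls lay under 4 in 4 of the 11 mesenchyme, 2 of the 8 smooth muscle and 3 of the 7 leukocyte genes, where only a rise was possible. Of all tested genes 21.7% were called lower and 17.9% higher. Of 10 erythroid genes 2 were tested, and both rose (3.76 and 3.97). Of 14 endothelium genes 1 was tested, Egfl7, which lay between 4.81 and 5.64 and fell by 0.57 (limma adjusted p = 0.0381), while Pecam1 lay at the lowest value of 2.36 on every array. Of 10 hepatocyte genes 2 were tested. Ttr lay between 10.58 and 10.80 and did not pass, Afp lay between 5.20 and 6.41 and fell by 0.89 (limma adjusted p = 0.0141), and Alb lay at 2.36 on every array. The part of these cells in the results was not tested. Fewer enterocytes and less RNA per enterocyte cannot be told apart in such bulk samples. The Gapdh control probe sets had a difference between 3' and 5' signal of 1.31 and 1.37 on the control arrays. It was 1.60 and 1.65 on the knockout arrays. For the actin control probe sets it was -0.10 and -0.13 on the control arrays, against -0.08 and -0.07 on the knockout arrays. The part of RNA quality was not tested.

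The carriers Fabp1 and Fabp2 were the most strongly reduced members, while the droplet coats and acyl-CoA synthetases were reduced to a lesser degree and Fabp5 was higher. Dbi was only slightly lower, and Fabp6 and Cd36 were too dim to be tested. All values are GCRMA intensities on a log2 scale. A change is the mean of the 2 knockouts less that of the 2 controls, and its standard error (SE) comes from limma. A gene entered the fit when a probe set reached a log2 value of 4 on at least 2 arrays, which 7 of the 9 annotated members did, and Acsl1 made 8. At an adjusted p under 0.05 over all tested probe sets, 5 of the 7 were lower, 1 was higher and 1 did not pass, and 6 of 8 were lower with Acsl1. Of all 8626 tested genes 21.7% were called lower and 17.9% higher. The knockout arrays lay wholly below the controls in 7 of the 8 members and wholly above in 1, which was so for 39.6% and 35.4% of all tested genes. The median change of the 8 was -1.18, beside -0.03 for all tested genes. No weight is put on these counts, because the members were taken from this same contrast. Acsl1 adds none either, since its probe sets could be named only if they had changed at least 2-fold. The dot plot of member probe sets shows every value.

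**Figure D1:**
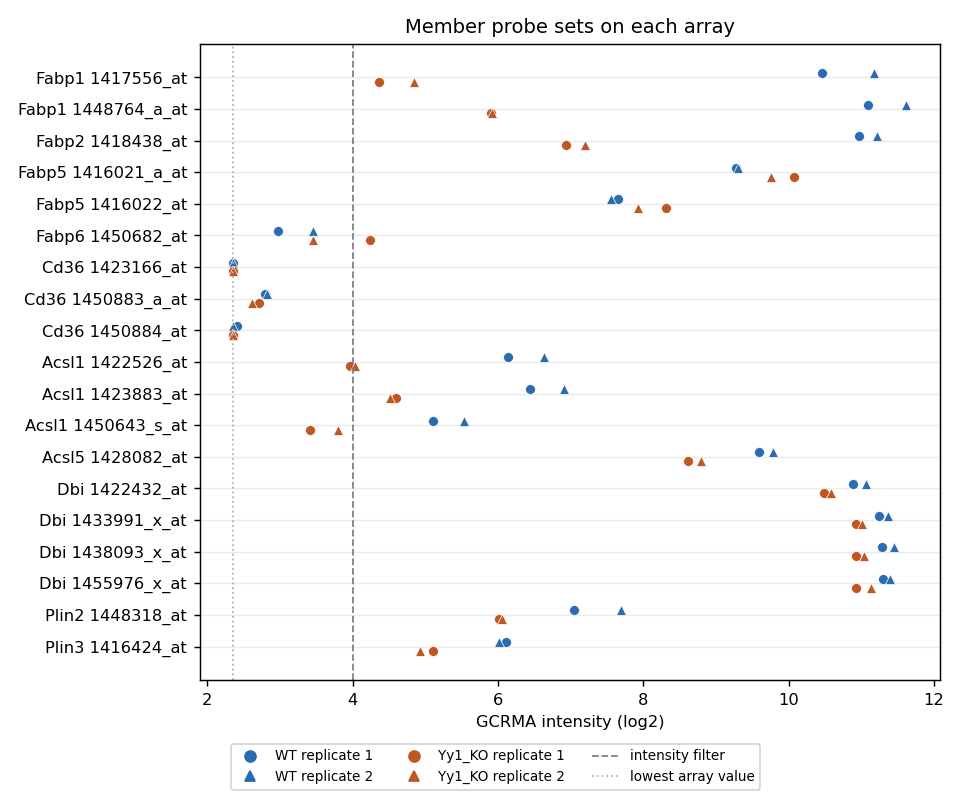
GCRMA intensity (log2, horizontal axis) of all 19 member probe sets (rows) on each array; blue marks the 2 WT arrays, orange the 2 Yy1_KO arrays, circles replicate 1 and triangles replicate 2. Fabp1 and Fabp2 show the widest gap between genotypes, Fabp5 lies in the opposite order, and the 3 Cd36 probe sets stay between 2.36 and 2.83, below the intensity filter at 4 (dashed).

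Fabp1 encodes the liver-type fatty acid binding protein, a cytosolic carrier of long-chain fatty acids that is also abundant in proximal enterocytes. Its brighter probe set (1448764_a_at) read 11.09 and 11.62 in the control pools against 5.91 and 5.92 in the knockout pools. Both knockout pools were thus far below both control pools, by 5.44 on the log2 scale (change -5.44, SE 0.19), a 43.4-fold lower signal, and the knockouts differed from each other by less than the controls did. The second probe set (1417556_at) had control values of 10.46 and 11.17 and knockout values of 4.37 and 4.85, a change of -6.20 (SE 0.28) or 73.8-fold. Knockout signal on both probe sets stayed above the intensity filter. Only 2 of the 8626 tested genes had a more negative change than Fabp1. The genes whose 4 values, centred on their own mean, lay closest to those of Fabp1 were Dmbt1 (Euclidean distance 0.24 in log2 units), Apoa1 (0.40) and Apoc3 (0.61). Knockout values of Dmbt1 (3.64 and 3.85) and Apoc3 (2.72 and 2.73) lay under the filter.

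Fabp2 encodes the intestinal fatty acid binding protein, which is restricted to the gut epithelium and binds a single fatty acid. It read 10.97 and 11.21 in the control pools against 6.93 and 7.20 in the knockout pools on its only probe set (1418438_at). The change was -4.02 (SE 0.15), which left 6.16% of the control signal, and 14 tested genes had a more negative change. The genotypes were separated by many times the distance between replicates of either one.

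The sequences next to the start sites of both genes are shown because they belong to the members with the largest changes, and that of Plin2, a droplet coat, because it holds a similar repeat. Each window runs from 250 bases before to 50 bases after the start, 5' to 3' on the gene's strand, from RefSeq (GRCm38.p6). Capitals mark matches to the motifs searched on both strands, and overlapping matches are merged. The windows are chr6:71199629-71199928 on the plus strand for Fabp1, chr3:122894822-122895121 on the plus strand for Fabp2 and chr4:86670010-86670309 on the minus strand for Plin2.
Fabp1: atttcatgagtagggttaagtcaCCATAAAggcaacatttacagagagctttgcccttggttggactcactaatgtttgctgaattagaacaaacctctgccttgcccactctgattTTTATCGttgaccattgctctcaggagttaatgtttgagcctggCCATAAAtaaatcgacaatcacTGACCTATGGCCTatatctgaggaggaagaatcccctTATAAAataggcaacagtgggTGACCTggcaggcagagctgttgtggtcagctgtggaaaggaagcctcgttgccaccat
Fabp2: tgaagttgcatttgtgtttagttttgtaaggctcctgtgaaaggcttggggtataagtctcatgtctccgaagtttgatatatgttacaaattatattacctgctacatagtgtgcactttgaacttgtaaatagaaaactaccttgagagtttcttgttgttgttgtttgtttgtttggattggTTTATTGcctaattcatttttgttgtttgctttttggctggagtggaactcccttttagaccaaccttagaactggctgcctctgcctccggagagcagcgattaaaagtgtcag
Plin2: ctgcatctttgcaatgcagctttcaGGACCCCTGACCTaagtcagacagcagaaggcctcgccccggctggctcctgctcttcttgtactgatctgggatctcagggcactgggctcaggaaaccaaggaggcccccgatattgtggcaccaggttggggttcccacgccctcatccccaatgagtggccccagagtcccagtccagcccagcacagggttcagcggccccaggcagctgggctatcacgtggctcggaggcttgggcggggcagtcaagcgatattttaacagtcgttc

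The motifs were AAGATGGC (YY1), AGGTCA (a nuclear receptor half-site), a direct repeat of that half-site spaced by 1 base (DR1, bound by PPAR-RXR and HNF4, with up to 2 mismatches in 12 positions), CAAAGTCCA (HNF4), TTTATNG (CDX), AGATAA (for GATA factors) and TATAAA (the TATA box). A half-site can lie within a DR1 match or apart from it, and a CDX match and a TATA box can share bases. The Fabp1 window held a DR1 match at -67 to -55 from the start (TGACCTATGGCCT), 3 CDX matches, a TATA box at -30 to -25 and, apart from the DR1, a half-site at -9 to -4. The Fabp2 window held a CDX match at -65 to -59, and the Plin2 window a DR1 match at -225 to -213 (GGACCCCTGACCT). RefSeq windows were present for 9 of the 10 genes, 11 windows in all. A DR1 match lay in 3 of the 11 (Fabp1, Cd36 and Plin2) and in 3.87% of 32544 promoter windows of the same length. CDX matches lay in 3 of the 11 (10.8% of all windows), the half-site in 3 (16.2%) and the TATA box in 2 (13.6%). No member window held the letters of the YY1 motif (2.77% of all), the HNF4 motif (0.479%) or the GATA motif (11.2%). These are matches of letters only.

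Fabp5, the epidermal type carrier, is made in many epithelia and in other cells such as macrophages and endothelium. It was the sole tested member with higher values in the knockouts. Its brighter probe set (1416021_a_at) had control values of 9.28 and 9.30 and knockout values of 10.07 and 9.76, a change of 0.62 (SE 0.14) or 1.54-fold. Both knockouts lay above both controls and differed from each other more than the controls did. On the second probe set (1416022_at) the control arrays read 7.65 and 7.55 and the knockout arrays 8.31 and 7.92, a change of 0.51 (SE 0.16) that did not pass the threshold. Fabp5 no longer passed when either control or knockout 1 was left out, with changes of 0.61 without control 1, 0.63 without control 2 and 0.46 without knockout 1. Of all tested genes, 1020 had a larger positive change. The closest profiles over the 4 arrays were those of Osbpl2 (distance 0.05), Fry (0.06) and Dennd5a (0.07). Both controls of Fry (3.85 and 3.91) lay under the filter.

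Fabp6 encodes the bile acid binding protein of the ileum. It read 2.97 and 3.46 in the control pools against 4.24 and 3.45 in the knockout pools, with overlapping groups. Only 1 array reached the filter, so Fabp6 was not tested. Cd36, a membrane protein that aids fatty acid uptake, was at or near the lowest value on all its probe sets. Probe sets 1423166_at and 1450884_at read 2.36 to 2.41 on every array, and 1450883_a_at had control values of 2.79 and 2.83 and knockout values of 2.71 and 2.61. No fold is given for either gene, since neither was measured above the filter in both genotypes.

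Acyl-CoA synthetases join fatty acids to coenzyme A, which traps them in the cell. Acsl1 is a form known for liver, fat and muscle. Its control values were 6.44 and 6.91 and its knockout values 4.60 and 4.51 on the brightest probe set named for it (1423883_at). That was a change of -2.12 (SE 0.17), and the probe sets 1422526_at and 1450643_s_at gave -2.38 (SE 0.18) and -1.70 (SE 0.20). On the last of these both knockouts lay under the filter, so that it could be tested only through the controls. Acsl5, the form abundant in the small intestine, had control values of 9.59 and 9.78 and knockout values of 8.61 and 8.80, a change of -0.98 (SE 0.13) that left 50.9% of the control signal. Both replicate pairs differed by about the same small step, and the genotypes were well apart. Without control 2 the Acsl5 change was -0.88 and did not pass the threshold.

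Dbi encodes the acyl-CoA binding protein, which shields the activated fatty acids in the cytosol. It was bright on all arrays and only slightly lower in the knockouts. The brightest probe set (1455976_x_at) read 11.30 and 11.39 in the control pools against 10.93 and 11.13 in the knockout pools, a change of -0.31 (SE 0.12) that did not pass. The other probe sets gave -0.44 (1422432_at, SE 0.12), -0.39 (1438093_x_at, SE 0.11) and -0.33 (1433991_x_at, SE 0.11), of which the first and the second passed. The suffix _x_at marks probe sets with probes that may also match other transcripts, and the probe set without it (1422432_at) gave the largest of the 4 differences. All 4 had knockouts wholly below controls.

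The perilipin Plin2 coats cytosolic lipid droplets in most cell types. It had control values of 7.04 and 7.69 and knockout values of 6.01 and 6.06 (1448318_at), a change of -1.32 (SE 0.22). The knockouts were almost equal, while the controls differed by more than for any other representative member probe set. The Plin2 change was -1.30 without knockout 1 and -1.35 without knockout 2, and it passed the threshold in neither case. Plin3, a soluble perilipin that moves to newly forming droplets, read 6.11 and 6.01 in the control pools against 5.10 and 4.93 in the knockout pools (1416424_at), a change of -1.04 (SE 0.12). Its replicates lay close together in both genotypes. Both perilipins were thus lower, to 40.0% and 48.5% of the control signal.

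**Figure D2:**
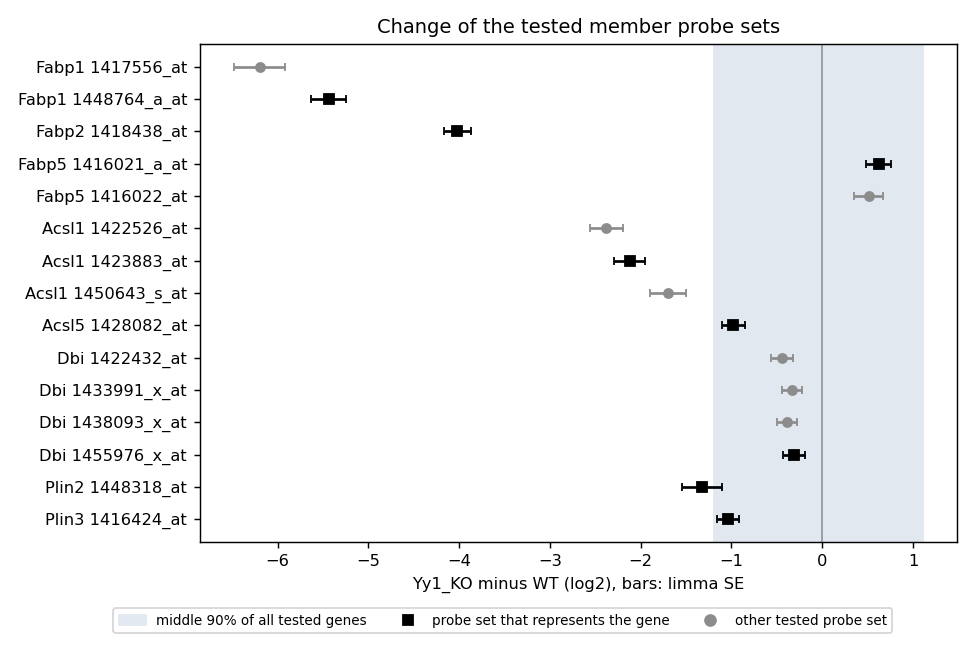
Knockout minus control change (log2, horizontal axis) of the 15 tested member probe sets (rows) with limma SE as bars; black squares represent the gene, grey circles are its other tested probe sets, and the shaded band spans the 5th to 95th percentile of all tested genes (-1.19 to 1.11). Fabp1, Fabp2 and Acsl1 lie outside the band, Plin2 lies just outside its lower edge, and Acsl5, Plin3, Dbi and Fabp5 within it.

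The authors' deposited table lists probe sets that changed at least 2-fold. It holds 8 probe sets of 5 members, Fabp1, Fabp2, Acsl1, Plin2 and Plin3, all lower in the knockout. In the authors' deposited table Fabp1 has log2 changes of -5.44 and -6.21 and Plin3 one of -1.04, which are the differences of the means of the same arrays and no separate evidence.

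Genes that act beside the members and were not part of the set were tested in the same fit. They came from 6 lists by function, chosen with earlier results of these data known, so the counts are no independent evidence. The lists held 81 genes, of which 45 were tested. Of these 45, 21 fell, 6 rose and 18 did not pass at a limma adjusted p under 0.05. That is 46.7% lower and 13.3% higher, beside 21.7% and 17.9% of all tested genes. Their median change was -0.40, beside -0.03 over all tested genes. Transcription factors made up 11 of the 45, of which 9 fell and 1 rose (list median -1.01). In the lists without these factors, the median was -0.40 for triacylglycerol synthesis and -0.26 for uptake and activation. It was -0.04 for droplet proteins and lipases, 0.02 for relatives of Dbi and -1.02 for the 2 tested relatives of the Fabp genes. Below, the term other lipid genes covers all 6 lists. All were measured on arrays on which the mesenchyme list had a median change of 2.31. On the same arrays 13 of 13 tested enterocyte and villus markers fell (median -2.39). For 7 of these 13 markers both knockouts lay under the filter, so only a fall was possible. The 6 others had a median change of -1.54. Both controls lay under it for 4 of the 11 tested mesenchyme genes, and the 7 others had a median of 2.39. Of the 45 genes of the 6 lists, 7 had both knockouts and 2 both controls under the filter, which fixed the direction. When control 2 was left out the count was 12 lower and 1 higher. It was 13 and 2 when knockout 1, and 11 and 1 when knockout 2, was left out.

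**Figure D3:**
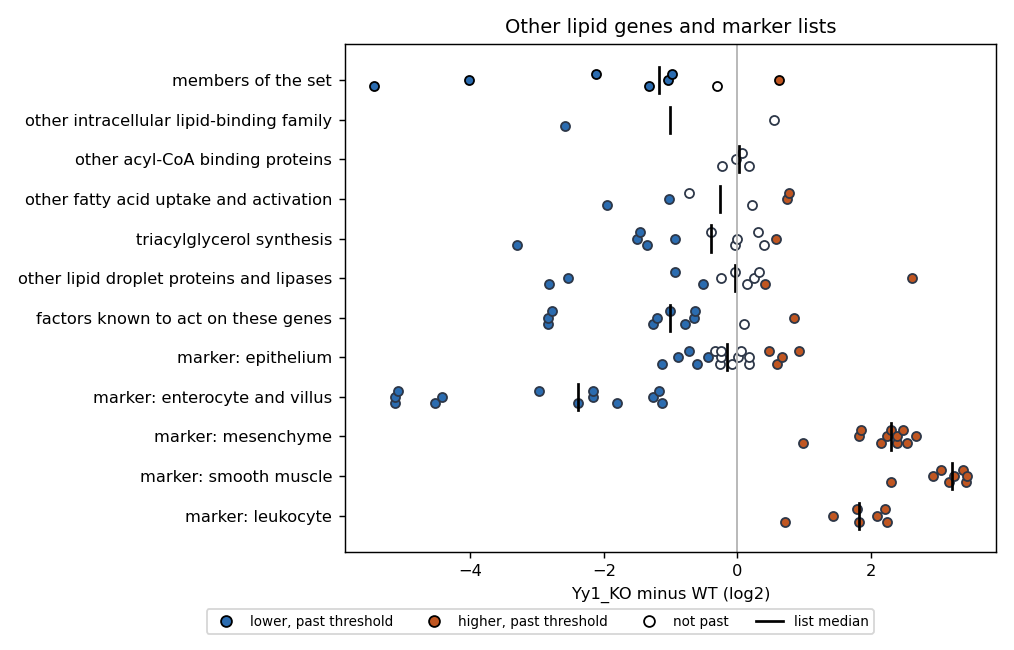
Knockout minus control change (log2, horizontal axis) of each tested gene (points) by list (rows), with the list median as a bar; blue points were called lower, orange higher and white points did not pass. The triacylglycerol synthesis and regulator lists have most of their called genes below 0, whereas the mesenchyme, smooth muscle and leukocyte markers all lie above 0.

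Among relatives of the Fabp genes, only Rbp2 and Fabp4 of 11 listed were bright enough to be tested. Rbp2, the retinol binding protein of enterocytes, had control values of 5.13 and 6.33 and knockout values of 3.24 and 3.05 and fell by 2.58 on the log2 scale (SE 0.38, limma adjusted p = 0.00660), with knockouts under the filter that allowed no other direction. It did not pass without knockout 1 (limma adjusted p = 0.0715) or knockout 2 (0.0916). Fabp4, the carrier of fat cells, macrophages and endothelium, read 5.25 and 4.53 in the control pools against 5.40 and 5.47 in the knockout pools, a change of 0.55 (SE 0.24, limma adjusted p = 0.132). Of 4 tested relatives of Dbi none passed, the lowest limma adjusted p being 0.183, and none had an unadjusted p under 0.05. Acbd3, Acbd4, Acbd5 and Acbd6 had changes of -0.23, 0.17, -0.02 and 0.07.

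Of 6 tested genes of fatty acid uptake and activation 2 fell and 2 rose, beside 21.7% and 17.9% of all tested genes. Acsl3, a synthetase linked to droplet formation, had control values of 8.10 and 8.24 and knockout values of 6.19 and 6.26 and fell by 1.95 (SE 0.11, limma adjusted p = 0.000770), and a second Acsl3 probe set gave -1.96. Slc27a4, the fatty acid transport protein of enterocytes, fell by 1.02 (SE 0.23, limma adjusted p = 0.0206) with both knockouts under the filter. Slc27a1, a transport protein of muscle and fat, rose by 0.74 (SE 0.15, limma adjusted p = 0.0155), and the mitochondrial synthetase Acsf2 rose by 0.77 (SE 0.13, limma adjusted p = 0.00967) with both controls under the filter. A second Slc27a1 probe set lay between 2.79 and 2.86 on every array and was not tested. Slc27a4 did not pass whichever array was left out (limma adjusted p = 0.0630 to 0.149). Slc27a1 and Acsf2 did not pass without control 2, knockout 1 or knockout 2 (limma adjusted p = 0.0687 to 0.120).

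Triacylglycerol synthesis had 5 of 11 tested genes lower, 1 higher and 5 that did not pass. Over all tested genes 21.7% were lower and 17.9% higher. Mogat2, the monoacylglycerol acyltransferase of the intestinal route, read 5.64 and 6.23 in the control pools against 2.53 and 2.71 in the knockout pools and fell by 3.31 (SE 0.21, limma adjusted p = 0.000970), with knockouts under the filter that allowed no other direction. Both diacylglycerol acyltransferases, which complete the triacylglycerol, fell, Dgat2 by 1.51 (SE 0.19, limma adjusted p = 0.00409) and Dgat1 by 1.35 (SE 0.14, limma adjusted p = 0.00263). Gpam, the mitochondrial glycerol phosphate acyltransferase, had control values of 8.10 and 8.28 and knockout values of 6.65 and 6.81 and fell by 1.46 (SE 0.12, limma adjusted p = 0.00152). The further probe sets of Dgat1 and Dgat2 passed in the same direction. That of Gpam gave -1.16, but its knockout values were both below 4, which left a fall as the sole outcome the fit could show. Dgat2 did not pass without knockout 1 (limma adjusted p = 0.0571) or knockout 2 (0.0642). The gene that rose was the acyltransferase Agpat3 (0.58, SE 0.11, limma adjusted p = 0.0142), named after its value was seen, although its other tested probe sets gave 0.75 and 0.27 and the second of these did not pass. Agpat3 did not pass whichever array was left out (limma adjusted p = 0.0658 to 0.0907).

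Other droplet proteins and lipases moved in both directions, 4 of 11 lower and 2 higher, beside 21.7% and 17.9% of all tested genes. Cideb, a droplet protein of liver and gut that aids lipoprotein loading, read 5.56 and 6.45 in the control pools against 3.15 and 3.23 in the knockout pools and fell by 2.82 (SE 0.29, limma adjusted p = 0.00244). Hsd17b13, a droplet-bound dehydrogenase, fell by 2.54 (SE 0.34, limma adjusted p = 0.00469), and for both genes only a fall was possible. A second Hsd17b13 probe set lay between 2.37 and 2.41 on every array and was not tested. The droplet hydrolase Ldah fell by 0.93 (SE 0.18, limma adjusted p = 0.0148), while its other tested probe set gave -0.25 and did not pass. Mgll, the monoacylglycerol lipase, had control values of 2.89 and 3.27 and knockout values of 5.72 and 5.67 and rose by 2.62 (SE 0.15, limma adjusted p = 0.000807), where only a rise was possible. A second Mgll probe set gave 1.73 (limma adjusted p = 0.00216) under the same limit. Without knockout 2 none of the 4 falls passed, Cideb having a limma adjusted p of 0.0545, Hsd17b13 one of 0.0754 and Ldah one of 0.122. Hsd17b13 and Ldah did not pass without knockout 1 either (0.0648 and 0.100), nor did Ldah without control 2 (0.0637). The relatives Plin4 and Plin5 lay near the lowest value of the arrays, between 2.36 and 2.54.

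Of 11 tested transcription factors that are known to act on such genes 9 fell and 1 rose, beside 21.7% and 17.9% of all tested genes. Ppara, the fatty acid sensor that activates Fabp1 and Acsl1 in liver, read 5.44 and 6.22 in the control pools against 3.03 and 2.96 in the knockout pools and fell by 2.84 (SE 0.26, limma adjusted p = 0.00185). Nr1h4, the bile acid receptor that activates Fabp6, had control values of 5.79 and 6.13 and knockout values of 3.05 and 3.19 and fell by 2.84 (SE 0.15, limma adjusted p = 0.000738). For Ppara and Nr1h4 only a fall was possible, and so it was for a further Ppara probe set, which gave -1.78 (limma adjusted p = 0.000850). Hnf4g, a nuclear receptor of the gut epithelium, fell by 2.78 (SE 0.24, limma adjusted p = 0.00158), and Pparg, the sensor best known from fat cells, by 1.26 (SE 0.20, limma adjusted p = 0.00842). Ppard, the third PPAR and the single factor that rose, read 4.85 and 4.65 in the control pools against 5.39 and 5.82 in the knockout pools, a change of 0.85 (SE 0.18, limma adjusted p = 0.0173), and was named after its value was seen. The list had 4 lower without control 2 and 6 lower without control 1 or knockout 2, and Ppard did not pass without control 1, control 2 or knockout 2 (limma adjusted p = 0.0847 to 0.139). Pparg did not pass without control 2, knockout 1 or knockout 2 (limma adjusted p = 0.0510 to 0.0853).

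**Figure D4:**
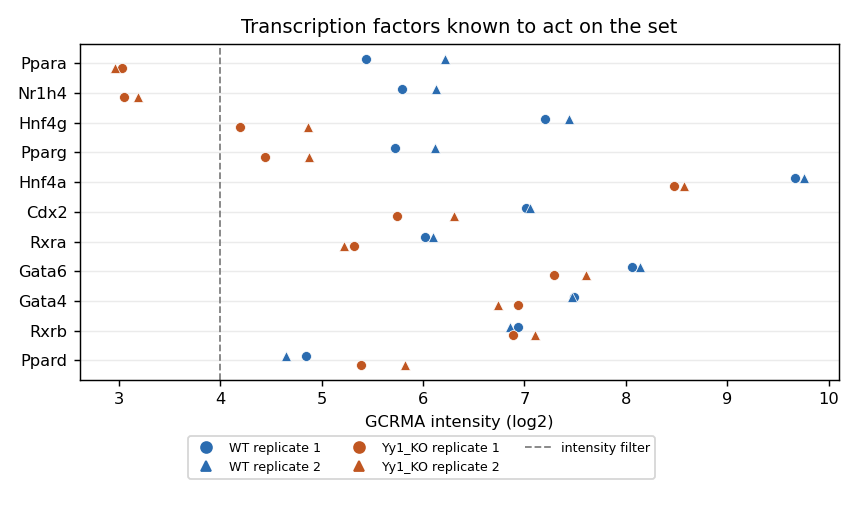
GCRMA intensity (log2, horizontal axis) of the 11 tested transcription factors (rows) on each array; blue marks WT, orange Yy1_KO, circles replicate 1, triangles replicate 2 and the dashed line the filter at 4. Ppara and Nr1h4 drop below the filter in both knockouts, and Ppard lies in the opposite order. Hnf4a is also lower in the knockouts (change -1.20, limma adjusted p = 0.00174) but stays well above the filter in both genotypes.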

How the data were processed

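RNA of 4 samples was measured on 1 array each. The deposited value table holds log2 intensities of 45101 probe sets. The authors made them with GCRMA, a background correction and normalization of Affymetrix arrays, per the submitters' processing notes. Dim probe sets end up near a common lowest value of 2.358, and their changes are compressed. The authors' deposited table gives, for their limma comparison, log2 fold changes, raw and adjusted p-values and 2 kinds of score (moderated t and log odds), per the file headers; its changes equal knockout minus control of the value table to within 0.00748. Its scores were not used. GCRMA's version and options are not given in the sources used here, and p-values measure the spread between pools of embryos.

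The contrast was fitted with limma 3.58.1 (lmFit, eBayes) in R 4.3.3 without covariates, over 16887 of the probe sets that had a log2 value of at least 4 on at least 2 arrays, after 64 control probe sets were left out. Benjamini-Hochberg adjustment ran over all of them. The fit was checked on simulated data. The tested probe set with the highest mean over the arrays stands for its gene, and 34945 probe sets had 1 symbol. The named genes are all members, Yy1 and Shh, up to 4 genes of each non-member lipid list with the largest change among those that passed and whose groups were fully apart, and the 3 nearest profiles of the members with the largest fall and rise. The members and lists were chosen with earlier results of these data known. Marker lists covered epithelium, enterocyte and villus, mesenchyme, smooth muscle, endothelium, leukocyte, erythroid, hepatocyte, and neuron and glia genes. The last 2 of these and endothelium and erythroid had at most 2 tested genes each. Deviations of same-numbered samples from their group means had a weak negative correlation (Pearson's r = -0.307 over tested probe sets). The replicate numbers, which the labels tie to no litter, were therefore not used as pairs. Alternatives covered the filter, an offset, the variance model, 2 scalings, single arrays left out, a replicate block, probe set choice and the threshold. Precision is limited by the number of arrays.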

Additional observations from a re-analysis of the deposited data

How the results depend on the processing

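Changes of the 8 tested members kept their sign under all alternatives run, and 81 of 95 recomputed values kept their side of the threshold too. With no filter on low values, limma called 0 of 9 members and 0 of 77 other lipid genes in either direction, although 5 members and 22 other genes were lower and 1 and 8 higher at an unadjusted p under 0.05. The cause was not tested. A filter at log2 of 6 left 24 other lipid genes, of which 13 were lower and 2 higher. The members called higher numbered 0 with a test against a 1.2-fold change and 0 at an adjusted p under 0.01, where Fabp5 did not pass, and the other lipid genes called higher were 2 under both. With each array left out in turn, members numbered 4 to 5 lower and 0 to 1 higher, and the other lipid genes 11 to 16 lower and 1 to 4 higher. The lone array of a genotype is then assumed to vary like the other genotype. With the replicate block, 5 members were lower and 1 higher, and the other lipid genes were 20 lower and 5 higher. A crossed block, added after the data had been seen, gave 5 and 1 members and 22 and 6 other genes.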

Other observations

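Of the 8 tested members, 7 had a higher value in control 2 than in control 1, the exception being Plin3, and 65.5% of all tested genes did. All 13 tested enterocyte and villus markers were higher in control 2 as well, with summed linear signals of 5259 and 7019 in controls 1 and 2, against 871 and 1070 in the knockouts. In the same pair of controls the mesenchyme list went the other way, with 1 of 11 genes higher in control 2. In the knockouts 5 of 8 members were higher in knockout 2, beside 56.1% of all tested genes. No order of replicates is implied, and no cause was tested.

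Marker lists with few tested genes rest on those genes alone. Of the erythroid list 2 of 10 genes were tested and both rose. Hbb-y had control values of 5.78 and 6.14 and knockout values of 9.78 and 9.65, a change of 3.76. Hba-x had the highest change of all tested genes (3.97), but its controls (2.52 and 3.21) lay under the filter, so only a rise was possible. Among the untested genes, Alas2 lay between 2.58 and 2.68 and Gata1 at 2.36 on every array. The neuron and glia list had 1 tested gene, Ednrb, which was higher, with both controls under the filter (3.21 and 3.26).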
